A study of Rattus norvegicus with 22 samples.

Results

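The circadian clock and clock output genes Per1, Per2, Per3, Cry1, Cry2, Nr1d1, Rora, Dbp, Nfil3 and Noct were followed in rat liver, 10 genes of the 18166 that had a probe set with a single gene symbol in the platform annotation. Each of the 10 was read by 1 probe set. The tested rats received a single intraperitoneal dose of 50 mg/kg GSK932121A, which the series title names as an inhibitor of mitochondrial complex III, and their livers were taken after 5 hours (n = 10). The controls received the vehicle alone, a suspension of mannitol, hydroxypropylmethylcellulose and sodium dodecyl sulphate in water without the compound (n = 12). All were female Crl:CD(SD) rats, an outbred Sprague-Dawley stock, aged 12 weeks by their sample labels, housed in 12-hour light and dark periods with free access to food. RNA of the median lobe of each liver was hybridised to 1 Affymetrix whole-transcript array. The submitters dosed 12 rats with the compound and left out 2 in which plasma exposure was low. No label gives the time of day at which any liver was taken, or the interval between dose and sampling for vehicle, so a difference of treatment and a difference of sampling time cannot be told apart. Values are log2 expression after RMA.

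The mammalian clock is a feedback loop of transcription. BMAL1 (gene Bmal1) pairs with CLOCK or NPAS2, binds E-boxes and drives the Period and Cryptochrome genes, whose proteins return to the nucleus and repress that activity. A second loop sets REV-ERB-alpha (Nr1d1), a repressor, against ROR-alpha (Rora), an activator, at ROR elements such as those of Bmal1. DBP and TEF activate, and NFIL3 represses, genes that carry a D-box, and nocturnin (Noct) is an NADP(H) phosphatase whose messenger cycles strongly in mouse liver. In liver the clock times bile acid, glucose and xenobiotic metabolism, and feeding, glucocorticoids, cAMP and body temperature can shift it.

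Promoter windows of 4 clock genes are shown, picked because they held a motif match and the genes differed in a pair of vehicle livers described further on. Per2, Nr1d1 and Tef were highest, and Bmal1 lowest, in that pair. Dbp and Per3 separated the pair from the other vehicle livers by 2.69 and 1.38 log2 units, but their windows held no match and are not shown. Whether the motifs have a part in that contrast was not tested. The windows are RefSeq sequence of the GRCr8 build, from 250 bases before to 50 bases after a gene's annotated start, and capitals mark matches to clock motifs. In Per2 (chr9:99496944-99497243, minus strand) the first capitals are a D-box and the second an E-box variant. In Nr1d1 (chr10:84229405-84229704, minus strand, the second of its 2 annotated starts) and in Tef (chr7:115206577-115206876, plus strand) they are an E-box, and in Bmal1 (chr1:176766078-176766377, plus strand) a ROR element.
Per2: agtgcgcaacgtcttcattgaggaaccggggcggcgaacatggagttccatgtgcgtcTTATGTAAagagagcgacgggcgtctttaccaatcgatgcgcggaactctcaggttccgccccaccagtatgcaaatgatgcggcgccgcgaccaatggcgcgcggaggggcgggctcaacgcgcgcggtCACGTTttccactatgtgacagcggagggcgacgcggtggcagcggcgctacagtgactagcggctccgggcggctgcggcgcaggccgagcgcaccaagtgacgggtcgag
Nr1d1: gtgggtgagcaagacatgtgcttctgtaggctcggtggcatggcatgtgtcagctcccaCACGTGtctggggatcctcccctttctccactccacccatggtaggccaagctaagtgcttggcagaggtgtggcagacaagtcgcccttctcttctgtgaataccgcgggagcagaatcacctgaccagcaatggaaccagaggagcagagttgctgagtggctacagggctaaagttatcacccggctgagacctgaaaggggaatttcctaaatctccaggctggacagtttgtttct
Tef: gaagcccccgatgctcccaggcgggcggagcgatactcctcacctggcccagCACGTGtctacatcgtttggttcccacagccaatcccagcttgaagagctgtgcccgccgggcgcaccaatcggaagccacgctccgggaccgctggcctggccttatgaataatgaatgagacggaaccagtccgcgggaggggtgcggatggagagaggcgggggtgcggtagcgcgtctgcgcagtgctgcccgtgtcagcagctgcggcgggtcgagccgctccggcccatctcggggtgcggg
Bmal1: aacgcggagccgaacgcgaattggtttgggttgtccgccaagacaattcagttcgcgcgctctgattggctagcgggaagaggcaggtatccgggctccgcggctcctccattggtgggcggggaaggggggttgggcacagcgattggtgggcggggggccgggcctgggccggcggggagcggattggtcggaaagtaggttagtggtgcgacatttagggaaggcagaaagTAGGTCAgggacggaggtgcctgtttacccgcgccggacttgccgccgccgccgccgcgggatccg

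The motifs were searched on both strands and none of the matches overlapped. The E-box CACGTG occurs in 6.42% of all 33469 rat windows of this length, its variant CACGTT in 4.83%, the D-box TTATGTAA in 0.893% and TTACGTAA in 0.12%. The ROR element was searched as TAGGTCA (2.63% of windows) and TGGGTCA (4.09%), the cAMP response element as TGACGTCA (1.83%) and the glucocorticoid response element by its palindromic consensus (0.439%). Windows were found for 9 of the 10 genes, and those of 3 held a match: Per2 and Nr1d1 as shown, with an E-box variant at the other Nr1d1 start, and Cry2 with an E-box variant that begins 212 bases before its start. The windows of Per1, Per3, Rora, Dbp, Nfil3 and Noct held none of these letters. The share of all windows that hold any of these motifs was not counted, so 3 of 9 cannot be set against it.

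Vehicle replicates 1 and 4 stood apart in their clock genes, and the pair was picked after these values were seen. Dbp was 9.63 in replicate 1 and 10.07 in replicate 4, while the other 10 vehicle livers lay between 6.24 and 6.94. Per3 was 7.59 and 7.98 in them, against 5.35 to 6.20 in the others, and Nr1d1 was 9.82 and 9.79, against 6.42 to 8.64. Bmal1 ran the other way, at 5.54 and 5.66 against 7.71 to 8.13. These 2 livers were the 2 highest vehicle livers for Per1, Per2, Per3, Nr1d1, Dbp and Noct and the 2 lowest for Nfil3 and Rora, 8 of the 10 genes (80.0%). Of all genes, 4.61% had them at the same end. Because the pair was picked from the clock genes, these shares describe it and test nothing. Only 8 of 18166 genes separated them from every other vehicle liver by at least 1 log2 unit, and 4 of those were Dbp, Bmal1, Per3 and Nr1d1. The other four were Upp2, a uridine phosphorylase with rhythmic liver expression, the steroid dehydrogenase gene Hsd17b2, the serine dehydratase gene Sds and the unnamed locus RGD1309362. Across all genes, the median correlations of the 2 arrays with the other vehicle arrays were 0.986 and 0.988. That is within the range of 0.984 to 0.988 of that group. Values were not centred by gene and every vehicle array correlated highly. These coefficients therefore cannot show whether the pair was unusual beyond the genes named. Results for the 10 genes are therefore also given without them where a call or a size changed, a choice made after seeing the data.

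GSK932121A replicates 13 and 14 differed from the other 8 treated livers in some of the same genes. Nr1d1 was 9.01 and 9.90 in them, against 5.87 to 8.65 in the other 8, and Dbp was 6.97 and 7.08, against 6.11 to 6.56. Bmal1 was 7.21 and 7.41, against 7.77 to 8.06. Cry1 was 5.28 and 5.21, against 6.02 to 7.02. The replicate numbers are names, and nothing in the labels ties these 4 animals together.

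**Figure D1:**
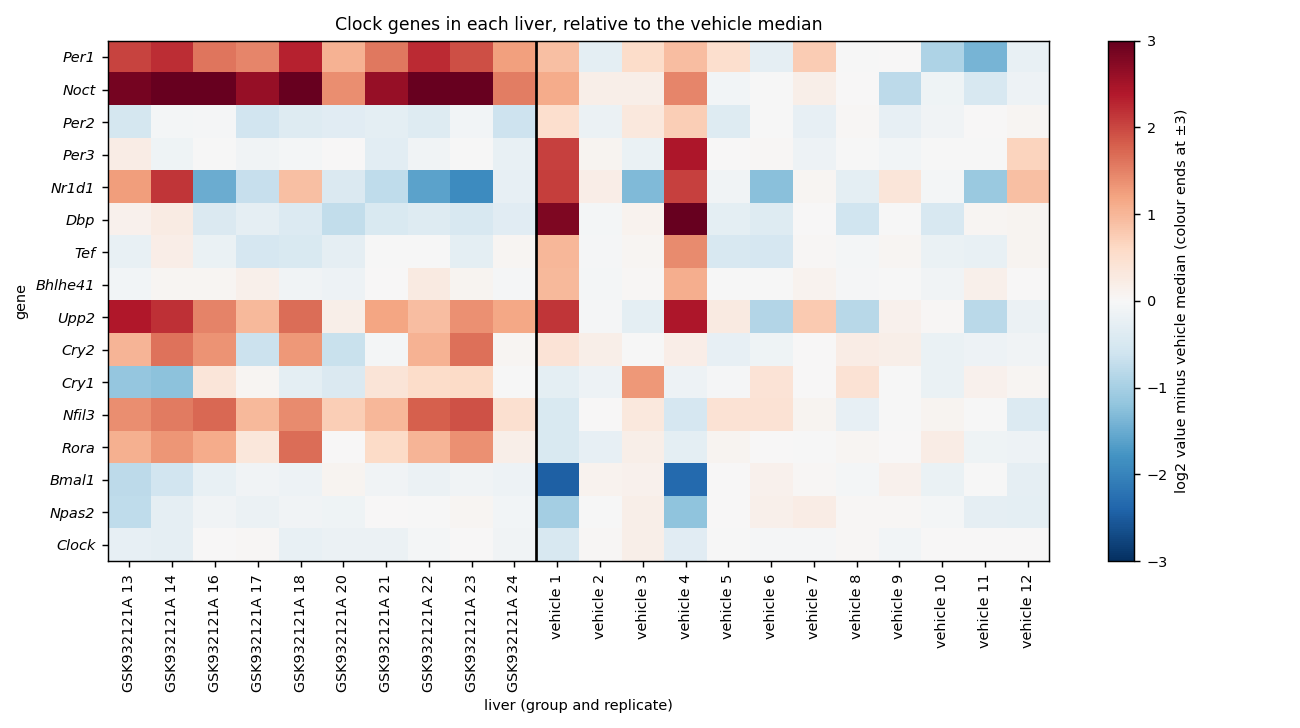
Log2 value minus the vehicle median (colour) for 16 clock and clock output genes (down) in each of the 22 livers (across), with GSK932121A livers left of the black line and vehicle livers right of it. Vehicle 1 and 4 are the livers with high Dbp, Per3, Nr1d1 and Upp2 and low Bmal1, and Per1, Noct and Nfil3 are high across the GSK932121A livers.

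The treatment comparison asked which of the 10 genes differed between GSK932121A and vehicle livers at 5 hours. Noct, Per1, Nfil3 and Rora were higher after GSK932121A, Per2 was lower, and Per3, Cry1, Cry2, Nr1d1 and Dbp did not pass (limma fitted over all genes, Benjamini-Hochberg adjusted p under 0.05). Thus 4 of 10 passed upwards, where 5.31% of all genes did, and 1 of 10 passed downwards, where 7.05% did. The median log2 difference of the 10 was 0.20, against -0.01 over all genes. Without vehicle replicates 1 and 4 the same number, 4, passed upwards and 0 downwards, with 882 of all genes passing upwards and 1090 downwards, against 964 and 1280 with all arrays. In whole liver, a change in the number of cells that make a messenger and a change in the amount per cell cannot be told apart.

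**Figure D2:**
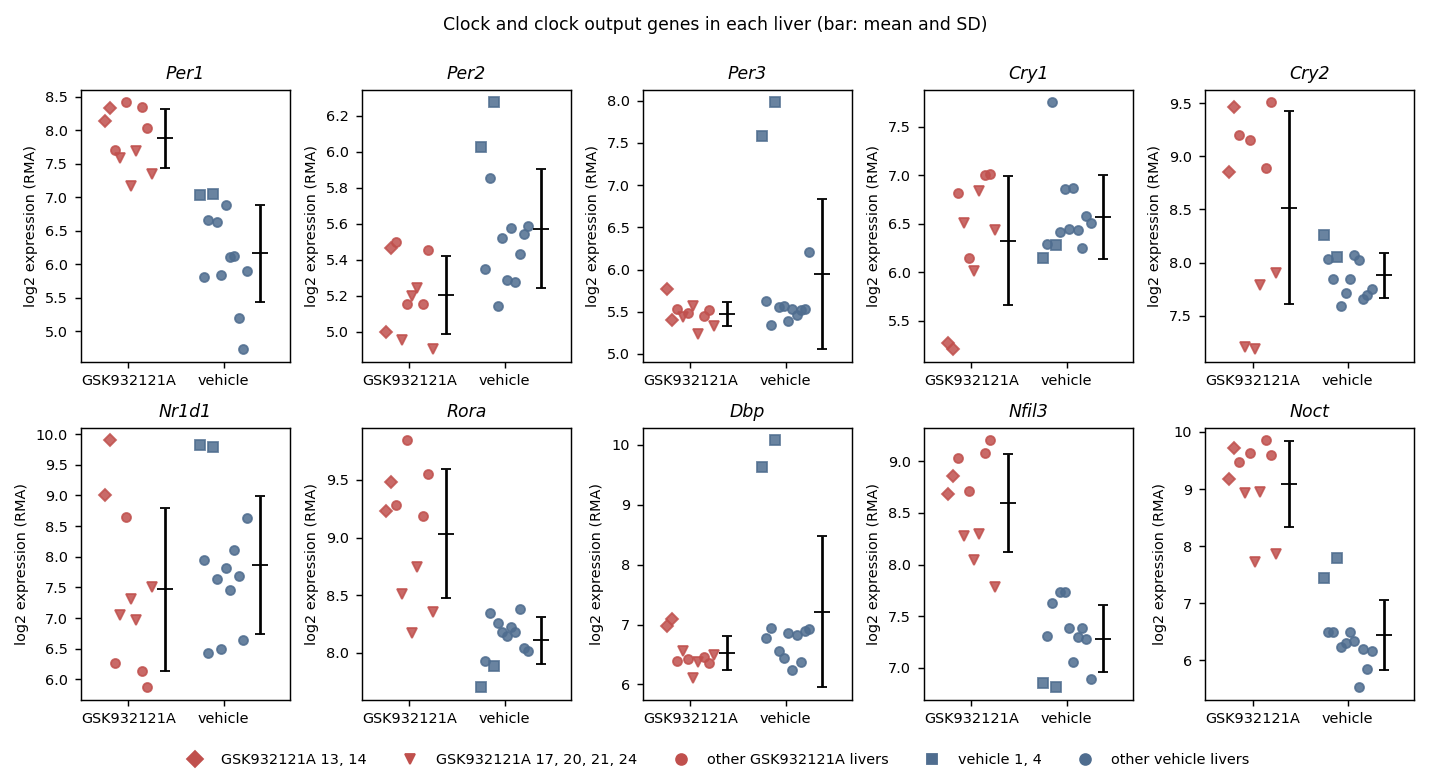
Log2 expression (vertical axes, each with its own range) of the 10 genes in every liver, GSK932121A left and vehicle right, with the mean and SD beside each group. Diamonds, triangles and squares mark the livers named in the text: for Per1 and Nfil3 no treated liver overlaps a vehicle liver, and for Dbp and Per3 the vehicle SD comes largely from the 2 squares.

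The Period genes moved unequally. Per1, an E-box driven repressor that also answers quickly to glucocorticoids and cAMP, ran from 7.16 through a median of 7.87 to 8.42 in GSK932121A livers, and from 4.73 through 6.12 to 7.05 in vehicle livers. The groups did not overlap, which held for every treated array above every vehicle array in 0.457% of all genes, and below in 0.281%. The mean was 7.88 ± 0.44 in GSK932121A livers and 6.16 ± 0.73 in vehicle livers (SD, n = 10 and 12), a log2 difference of 1.72 ± 0.24 (SE; limma, adjusted p = 1.59e-05). Even vehicle replicates 1 and 4, the vehicle livers highest in Per1 at 7.03 and 7.05, lay below the lowest treated liver.

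Per2, the paralogue most closely tied to the core loop in mouse, ran from 4.90 through 5.18 to 5.50 in GSK932121A livers and from 5.14 through 5.53 to 6.27 in vehicle livers. The groups overlapped over most of the treated range, and 3 treated livers lay below every vehicle liver. The log2 difference was -0.37 ± 0.11 (SE; limma, adjusted p = 0.0331), a 1.29-fold fall. That call was lost without vehicle replicates 1 and 4, where the difference was -0.25 (adjusted p = 0.0839). It was also lost without any 1 of GSK932121A replicates 13, 17, 18, 22 or 24 or vehicle replicates 1 or 3 (adjusted p up to 0.0656). Its values lay little above the array medians of 4.73 to 4.85.

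Per3, a period gene with large liver rhythms in mouse, ran from 5.23 through 5.47 to 5.77 in GSK932121A livers and from 5.35 through 5.54 to 7.98 in vehicle livers. Apart from vehicle replicates 1, 4 and 12, all livers of both groups lay between 5.23 and 5.77. The log2 difference of -0.47 ± 0.25 (SE) did not pass (limma, adjusted p = 0.272), and without replicates 1 and 4 it was -0.10 (adjusted p = 0.547).

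The unequal change of the paralogues was tested directly on the difference between 2 genes within each array, in 5 pairs, with two-sided permutation tests of the group labels adjusted over the 5. The change of Per1 exceeded that of Per2 by 2.08 ± 0.24 and that of Per3 by 2.19 ± 0.27 on the log2 scale (SE, n = 10 and 12; adjusted p = 1.67e-05 each from a permutation p of 1e-05, the smallest that 100000 resamples give). All 10 treated livers lay above the vehicle mean of either difference. Per2 and Per3 differed in their changes by 0.10 ± 0.21 (SE; permutation test, adjusted p = 0.651), and by -0.15 without vehicle replicates 1 and 4 (adjusted p = 0.248), so these probe sets did not separate them. Each gene was read by a different probe set, and how far probe sets differ in their response was not tested.

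The cryptochromes, which bind the Period proteins and repress BMAL1, diverged in their spread. Cry2 ran from 7.18 through 8.87 to 9.51 in GSK932121A livers and from 7.59 through 7.85 to 8.26 in vehicle livers. Treated livers lay on both sides of the vehicle range: 6 were above every vehicle liver and 2, replicates 17 and 20, were below every one. The treated SD was 4.38 times the vehicle SD (0.91 and 0.21), and the log2 difference of 0.64 ± 0.24 (SE) did not pass (limma, adjusted p = 0.0898). It passed without GSK932121A replicate 17 (0.78, adjusted p = 0.0194) or without replicate 20 (0.78, adjusted p = 0.0179), the 2 lowest treated livers. The other 31 of 33 alternatives did not pass, among them the Welch (adjusted p = 0.229) and Wilcoxon (adjusted p = 0.367) tests. Within the treated group, replicates 17, 20, 21 and 24 lay between 7.18 and 7.91 and the other 6 between 8.86 and 9.51.

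Cry1, the cryptochrome that REV-ERB-alpha represses through a ROR element, ran from 5.21 through 6.47 to 7.02 in GSK932121A livers and from 6.15 through 6.44 to 7.75 in vehicle livers. The medians were nearly equal, and 3 treated livers, replicates 13, 14 and 20, lay below every vehicle liver. The log2 difference was -0.24 ± 0.21 (SE; limma, adjusted p = 0.537). It was -0.31 (adjusted p = 0.45) without vehicle replicates 1 and 4, and -0.04 (adjusted p = 0.937) without GSK932121A replicates 13 and 14 as well. The changes of Cry1 and Cry2 differed by -0.88 ± 0.40 (SE, n = 10 and 12; permutation test, adjusted p = 0.0332), with 7 of 10 treated livers below the vehicle mean of that difference. This call was lost without any 1 of GSK932121A replicates 13, 14, 16, 18 or 23 or vehicle replicates 3 or 6 (adjusted p up to 0.0777).

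In the stabilising loop, Rora rose and Nr1d1 varied widely in both groups. Rora, the activator at ROR elements, ran from 8.18 through 9.21 to 9.84 in GSK932121A livers and from 7.70 through 8.16 to 8.38 in vehicle livers. Of the treated livers, 8 lay above every vehicle liver, and replicates 20 and 24 fell inside the vehicle range at 8.18 and 8.35. Rora averaged 9.03 ± 0.56 in GSK932121A livers and 8.11 ± 0.20 in vehicle livers (SD, n = 10 and 12), a 1.90-fold rise (limma, adjusted p = 0.000191).

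Nr1d1, the repressor of the same elements, ran from 5.87 through 7.18 to 9.90 in GSK932121A livers and from 6.42 through 7.75 to 9.82 in vehicle livers. The groups covered almost the same range, with treated livers 16, 22 and 23 below every vehicle liver and replicate 14 above every one. The SD was 1.33 in treated and 1.12 in vehicle livers, and the log2 difference was -0.41 ± 0.46 (SE; limma, adjusted p = 0.662). Without vehicle replicates 1 and 4 it was -0.02 (adjusted p = 0.987), and without GSK932121A replicates 13 and 14 as well it was -0.52 (adjusted p = 0.444).

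Among the D-box factors, the repressor rose and the activator did not pass. Nfil3, also called E4BP4, ran from 7.78 through 8.70 to 9.20 in GSK932121A livers and from 6.81 through 7.30 to 7.73 in vehicle livers. The groups did not overlap, although the gap between the lowest treated and the highest vehicle liver was narrow. Nfil3 averaged 8.60 ± 0.48 in GSK932121A livers and 7.28 ± 0.32 in vehicle livers (SD, n = 10 and 12), a 2.49-fold rise (limma, adjusted p = 2.09e-06).

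Dbp, the activator, ran from 6.11 through 6.44 to 7.08 in GSK932121A livers and from 6.24 through 6.84 to 10.07 in vehicle livers. Leaving aside vehicle replicates 1 and 4, the vehicle livers lay between 6.24 and 6.94, with a median of 6.80. Treated livers other than replicates 13 and 14 lay between 6.11 and 6.56, in the lower part of that range or below it. The log2 difference of -0.69 ± 0.36 (SE) did not pass (limma, adjusted p = 0.258), and without the 2 vehicle livers it was -0.16 (adjusted p = 0.47). Without GSK932121A replicates 13 and 14 as well it was -0.28 (limma, adjusted p = 0.0862). The change of Nfil3 exceeded that of Dbp by 2.00 ± 0.46 (SE, n = 10 and 12; permutation test, adjusted p = 1.67e-05), with all 10 treated livers above the vehicle mean, and by 1.39 without vehicle replicates 1 and 4 (permutation test, adjusted p = 6.67e-05).

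Noct had the largest change of the 10. It ran from 7.73 through 9.33 to 9.85 in GSK932121A livers and from 5.53 through 6.32 to 7.79 in vehicle livers. Only treated replicate 20, at 7.73, lay inside the vehicle range, and vehicle replicates 1 and 4, at 7.45 and 7.79, stood above the other 10, which lay between 5.53 and 6.50. The log2 difference was 2.65 ± 0.26 (SE; limma, adjusted p = 1.51e-07), and 2.88 without those 2 (adjusted p = 1.12e-08), when all 10 treated livers lay above every remaining vehicle liver.

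**Figure D3:**
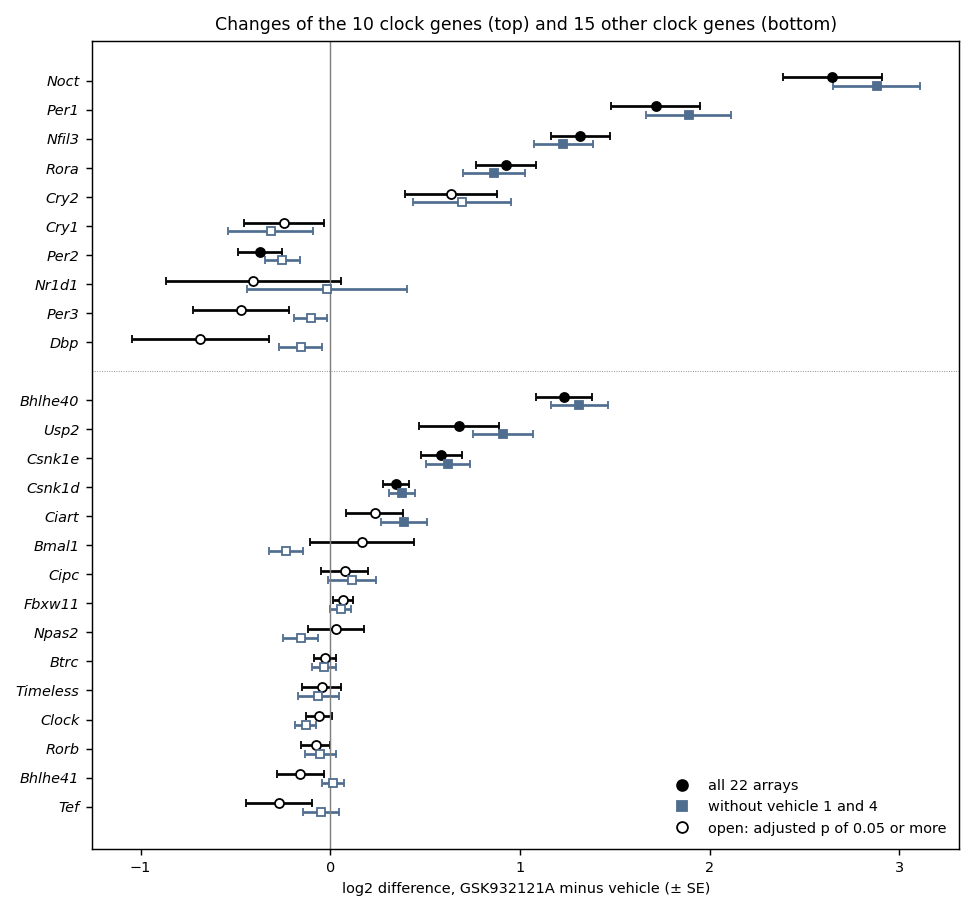
Log2 difference between GSK932121A and vehicle livers (horizontal axis, bars are SE) for the 10 genes and 15 other clock genes, with all 22 arrays (circles) and without vehicle 1 and 4 (squares). Filled symbols passed at an adjusted p under 0.05: leaving out the 2 livers brings Dbp, Per3 and Nr1d1 towards 0 and leaves Noct, Per1, Nfil3 and Rora well above it.

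The treated livers varied among themselves, and the same 4 were lowest for 5 of the genes. This grouping was made after the values were seen, and the share of all genes with these 4 lowest was not counted. Replicates 17, 20, 21 and 24 were the 4 lowest treated livers for Per1 (7.16 to 7.69), Cry2 (7.18 to 7.91), Nfil3 (7.78 to 8.30), Rora (8.18 to 8.74) and Noct (7.73 to 8.95). The other 6 treated livers lay between 7.71 and 8.42 for Per1, between 8.69 and 9.20 for Nfil3, between 9.19 and 9.84 for Rora and between 9.18 and 9.85 for Noct. Outside the 10 genes, Lpin1 split likewise, from 9.67 to 10.42 in the 4 and from 10.56 to 11.21 in the other 6. Por did not, at 9.65 to 10.50 in the 4 and 9.56 to 10.54 in the other 6. No wide gap set the 4 apart for Per1 (7.69 against 7.71) or Noct (8.95 against 9.18), while for Cry2 the treated livers fell into 2 clusters. Correlations were therefore also taken within the 6 alone, where 0 of 45 pairs among the 10 genes passed (exact permutation test of Pearson's r, adjusted over 90 pairs in both groups), with 4 at an unadjusted p under 0.05. The pair with the lowest p was Cry1 and Nr1d1 (r = -0.96 over these 6 livers; exact permutation p = 0.00139, adjusted p = 0.125). That p is the smallest that 6 livers can give. A single pair could therefore not pass the adjustment whatever its correlation, and the count of 0 decides nothing.

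In the treated livers, Cry1 and Nr1d1 had the most negative correlation of the 45 pairs. Over the 10 treated livers Pearson's r was -0.93 (permutation p = 0.0001, adjusted p = 0.00735 over 90 pairs) and Spearman's rho -0.95 (permutation p = 0.00011, adjusted p = 0.0099). Without the 2 livers farthest from the Cry1 median, replicates 13 and 14, r was -0.83, and no pair of the 10 genes passed the adjusted threshold on such reduced sets. Over all 12 vehicle livers r was -0.67 (permutation p = 0.0135, adjusted p = 0.0468 over 90 pairs), which passed. Their rho was -0.75 (permutation p = 0.00673, adjusted p = 0.0865), which did not. In the vehicle livers other than replicates 1 and 4, r was -0.67 and rho -0.62 (n = 10; permutation p = 0.0234 and 0.0619), which did not pass the adjustment over 90 pairs (adjusted p = 0.354 and 0.696). The coefficient was negative in both groups, and its difference between them was not tested.

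**Figure D4:**
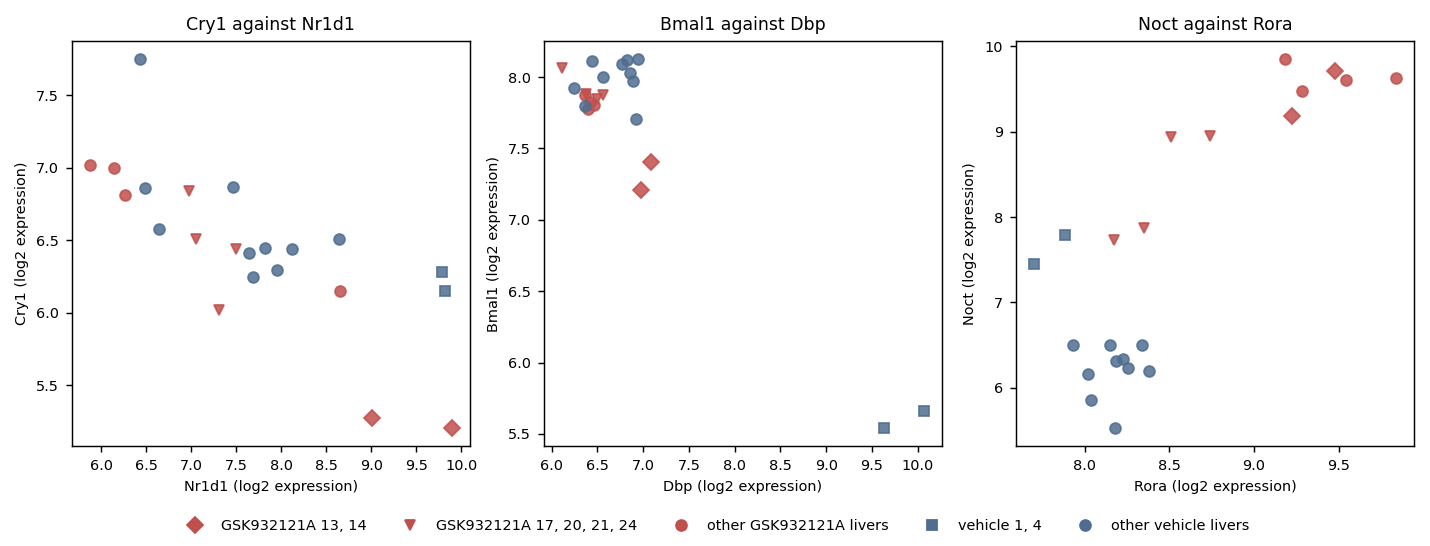
Log2 expression of Cry1 against Nr1d1, Bmal1 against Dbp and Noct against Rora, 1 symbol for each of the 22 livers, GSK932121A in red and vehicle in blue. Cry1 falls as Nr1d1 rises in the treated livers, vehicle 1 and 4 lie alone at high Dbp and low Bmal1, and the triangles (GSK932121A 17, 20, 21 and 24) lie at lower Rora and Noct than the other treated livers.

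Genes outside the 10 with the most similar pattern between animals were found by Pearson's r of values centred on each group's mean, over 22 arrays, as a description. For Per1 they were the transcription factor gene Klf9 (r = 0.863), the glucose transporter gene Slc2a2 (0.846) and Tp53inp1 (0.827). For Cry2 they were Nt5e (0.928), Iffo2 and Slc16a6, for Rora Dusp16 (0.909), Agxt and Ppm1k, for Nfil3 Gramd1c (0.856), Tlr6 and Prpf8, and for Noct Cgrrf1 (0.823), Slc25a25 and Fhip2a. Cry1 was most like Camta1 (0.805), Apoc1 and Zfp13, and Nr1d1 most like Vkorc1l1 (0.847), Herpud1 and Maged1. For Dbp and Per3 the closest gene was the E-box repressor gene Bhlhe41 (0.939 and 0.895), but without vehicle replicates 1 and 4 these values were 0.305 and -0.174, so that likeness rests on the 2 livers. Per2 was closest to Def8 (0.779, and 0.640 without the 2 livers), Specc1 and Mir3560. The coefficient of Dbp with Bmal1 was -0.962 over 22 arrays and -0.550 without vehicle replicates 1 and 4.

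The rest of the clock machinery was compared through a list of 21 genes, of which 15 were measured by a probe set with a single symbol. Of these, 4 rose and 0 fell, where 5.31% of all genes rose and 7.05% fell, and 11 did not pass (limma). The same number, 4, had an unadjusted p under 0.05, and the median log2 difference was 0.06. Bhlhe40 (DEC1), an E-box repressor, rose 2.35-fold, with a mean of 11.14 ± 0.41 in GSK932121A livers and 9.91 ± 0.36 in vehicle livers (SD, n = 10 and 12; limma, adjusted p = 2.7e-06), and 9 of 10 treated livers lay above every vehicle liver. Csnk1e and Csnk1d, kinases that mark Period proteins for turnover, rose 1.5-fold (limma, adjusted p = 0.000486) and 1.27-fold (adjusted p = 0.000784). Usp2, a rhythmic deubiquitinase, rose 1.6-fold (limma, adjusted p = 0.0349). Leaving out a single array ended the Usp2 call for 11 of the 22 (GSK932121A replicates 13, 14, 21, 22 and 23 and vehicle replicates 2, 5, 6, 9, 10 and 11; adjusted p up to 0.0669). The Welch (adjusted p = 0.0622, over all genes), Wilcoxon (0.0685) and trend and robust (0.0525) alternatives ended it too, but without vehicle replicates 1 and 4 the change was 0.91 on the log2 scale (adjusted p = 0.000343).

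The activators and their D-box output showed no such change. Bmal1 was 7.76 ± 0.25 in GSK932121A livers and 7.59 ± 0.94 in vehicle livers (SD, n = 10 and 12; limma, adjusted p = 0.78). Its difference was 0.17 with all arrays and -0.23 without vehicle replicates 1 and 4 (adjusted p = 0.112), a change of sign that did not pass on either side. Npas2 differed by 0.03 (limma, adjusted p = 0.937), and by -0.16 without the 2 vehicle livers (adjusted p = 0.332). Clock differed by -0.06 (adjusted p = 0.658), and by -0.13 without them (adjusted p = 0.157), when 6 of 10 treated livers lay below every remaining vehicle liver. Tef, the D-box activator related to Dbp, differed by -0.27 (limma, adjusted p = 0.366), or -0.05 without the 2 vehicle livers. Ciart, a repressor of CLOCK and BMAL1, differed by 0.23 (adjusted p = 0.38), and passed without the 2 vehicle livers at 0.39 (adjusted p = 0.0406). Ciart, Bhlhe41 and Rorb had vehicle means below every array median, so that these probe sets give little room for a fall. The 6 listed genes with no such probe set were not analysed here.

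A list of 18 genes with rhythmic expression in liver, chosen as clock output, had 15 measured members, of which 9 rose and 1 fell, where 5.31% of all genes rose and 7.05% fell, with a median log2 difference of 0.47. The 10 calls became 8 without vehicle replicates 1 and 4, when Wee1, a cell cycle kinase gene (adjusted p = 0.0673), and Insig2, a regulator of sterol synthesis (adjusted p = 0.0764), no longer passed, and ran from 7 to 10 with single arrays left out. The Wee1 call (limma, adjusted p = 0.0499) was lost in 21 of 33 alternatives and the Insig2 call (adjusted p = 0.0258) in 6. Lpin1, a phosphatidate phosphatase, rose 4.65-fold, Cdkn1a, the cell cycle inhibitor p21, 2.87-fold, Por, the electron donor of microsomal cytochromes P450, 2.18-fold and Upp2 2.18-fold. For Lpin1 and Cdkn1a no treated liver overlapped a vehicle liver. Upp2 ran from 8.88 through 9.97 to 11.09 in GSK932121A livers and from 7.81 through 8.69 to 11.13 in vehicle livers, the top of that range being replicates 4 and 1. Its call (limma, adjusted p = 0.0315) was lost without any 1 of GSK932121A replicates 13, 14 or 18 or vehicle replicates 6, 8 or 11 (adjusted p up to 0.0699). It was also lost under the Welch, Wilcoxon and trend and robust alternatives (adjusted p of 0.0601, 0.0585 and 0.0615), while without vehicle replicates 1 and 4 the log2 difference was 1.53 (adjusted p = 9.44e-05). The member that fell was Nr1i3, the receptor CAR, whose mean was 4.91 ± 0.45 in GSK932121A livers and 5.49 ± 0.30 in vehicle livers (SD, n = 10 and 12; adjusted p = 0.00851). Its treated values ran from 4.08 to 5.44, across the array medians of 4.73 to 4.85, so this fall lies at low signal.

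Genes of 3 known inputs to the liver clock were set beside these changes. All 8 measured glucocorticoid-responsive genes rose, against 5.31% of all genes, the largest changes being Zbtb16 (3.33-fold), Dusp1 (2.37-fold), Tat (2.36-fold) and Sgk1 (2.25-fold). Of 7 genes of the cAMP pathway 5 rose, against the same 5.31%, led by Ppargc1a (8.18-fold), Sik1 (7.61-fold), Nr4a1 (5.42-fold) and Crem (2.03-fold). Both directions were known from earlier results of these data. Of 5 measured temperature-responsive genes 3 passed, against 12.4% of all genes in either direction: the cold-inducible Rbm3 rose 1.73-fold and Cirbp 1.24-fold, and the chaperone gene Hspa8 fell by 0.62 on the log2 scale (limma, adjusted p below the threshold for each). For Cirbp (adjusted p = 0.037) leaving out a single array ended the call in 12 of 22 cases, as did the Welch and Wilcoxon alternatives (adjusted p of 0.0932 and 0.0925). Whether any of these inputs has a part in the changes of the 10 genes was not tested.

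The tissue label was checked against marker genes. Alb, the hepatocyte product albumin, was 13.38 ± 0.04 in GSK932121A livers and 13.41 ± 0.03 in vehicle livers (SD, n = 10 and 12), and Ttr, transthyretin, was 13.08 ± 0.11 in GSK932121A livers and 13.18 ± 0.18 in vehicle livers. Of the measured marker genes of hepatocytes (6), Kupffer cells (5), sinusoidal endothelium (2), stellate cells and fibroblasts (5), cholangiocytes (4), neutrophils (4) and lymphocytes (4), those that passed were Cps1, Cd163 and Lyve1, which rose by 0.32, 0.36 and 0.22 on the log2 scale. In either direction 12.4% of all genes passed. The mean of the Kupffer cell list ran from 7.37 to 7.83 in GSK932121A livers and from 7.05 to 7.75 in vehicle livers, and that of the neutrophil list from 3.72 to 4.22 in GSK932121A livers and from 3.74 to 4.14 in vehicle livers. For the stellate cell and fibroblast list it ran from 6.61 to 7.73 in GSK932121A livers and from 6.50 to 7.29 in vehicle livers. For the endothelial list the ranges were 8.49 to 8.91 in GSK932121A livers and 8.37 to 8.88 in vehicle livers. The part of these cells in the results was not tested.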

How the data were processed

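Expression was measured in 22 rat livers, 10 after GSK932121A and 12 after vehicle, on 1 array each. The deposited values are log2 expression made by the authors with RMA (background correction, normalisation between arrays and probe set summary), per the submitters' processing notes. No software version or genome build is given in the sources used here. Normalisation between arrays hides any shift common to all genes. Values ran from 0.67 to 13.77 and array medians from 4.73 to 4.85. The number of arrays limits the precision.

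Groups came from the sample titles. The platform annotation gave a single symbol to 18511 of the 36685 probe sets, several to 575 and none to 17599, and the highest-mean probe set stood for each of 18166 genes. All genes were fitted on group alone in limma 3.58.1 (R 4.3.3), with Benjamini-Hochberg adjustment over all genes and a threshold of 0.05. Paralogue differences and correlations used permutation tests of 100000 resamples (enumerated below 10 livers, and fewer in the alternatives), in Python 3.11.15 (scipy 1.17.1, pandas 2.3.3, numpy 2.4.6). Plots used matplotlib 3.10.9. The limma fit and the permutation tests were tested on simulated data. Of 7 planned pairs, 5 were analysed here.

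The 10 genes and the gene lists were chosen with earlier results of these data known. Named by rule were all 10, every other clock gene that passed, up to 4 genes of the output and each input list with the largest change among those that passed, the 3 most similar genes of each, and markers. Nr1i3, Wee1, Insig2, Bmal1, Npas2, Clock, Tef, Ciart, Bhlhe41, Rorb and the genes separating vehicle replicates 1 and 4 were named after their values were seen. The labels name no batch, and p-values measure the spread between these animals. The alternatives were median centring, quantile and cyclic loess normalisation, a minimum mean of 5, the mean of probe sets, array weights, limma's trend and robust options, Wilcoxon and Welch tests, and each array left out in turn. Leaving out the arrays that stood apart was added after seeing the data.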

Additional observations from a re-analysis of the deposited data

Results flagged for a closer look

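Of 40 genes examined (the 10, the other clock genes and the output genes), 4 had a treated liver far from the other 9, where chance flags about 1 group in 20. At that rate some flags arise by chance alone, so the 4 are only described. Npas2 was 8.02 in GSK932121A replicate 13, against 8.50 in the next liver, replicate 14. Btrc, a ubiquitin ligase subunit, was 8.06 in replicate 16, against 7.75 in the next. Fbxw11, its paralogue, was 7.90 in replicate 22, against 8.04 in the next. Gys2, liver glycogen synthase, was 8.21 in replicate 24, against 9.23 in the next.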

How the results depend on the processing

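The changes of Noct, Per1, Nfil3 and Rora kept their direction and their call under all 33 alternatives, and those of Per3, Cry1, Nr1d1 and Dbp did not pass under any of the 33. The number of the 10 genes passing downwards was 0 without vehicle replicates 1 and 4 and 0 also without GSK932121A replicates 13 and 14 (both chosen after seeing the data), and ran from 0 to 1 with single arrays left out. In that last fit of 18 arrays, which has fewer samples, 718 of all genes passed downwards, against 1280 with all arrays, and Cry1 and Cry2 differed in their changes by -0.57 (permutation test, adjusted p = 0.0989). With single arrays left out the difference between Cry1 and Cry2 ran from -1.05 to -0.65. Per2 minus Per3 ran from -0.02 to 0.18 with single arrays left out, was -0.15 without vehicle replicates 1 and 4 and -0.13 without GSK932121A replicates 13 and 14 as well. It was below 0 without vehicle replicate 1 (-0.0074) or 4 (-0.0206), and no value passed. The other 3 pairs kept their calls. Pairs of the 10 genes correlated past the adjusted threshold within a group numbered 11 in GSK932121A and 15 in vehicle livers, and 0 in both without the 2 livers farthest from the median of the first gene, or within clusters of livers (vehicle without 1 and 4, and the treated 6), with fewer livers in each. For the treated 6 a single pair could not pass even at the smallest possible p, so that count decides nothing. No paired analysis was possible because the groups share no replicate numbers. Signal over background was not analysed here, and Per2, Per3, Tef, Ciart, Nr1i3 and Wee1 lay near the array medians.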
